A study of Mus musculus with 4 samples.

Results

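The Polycomb repressive complex 2 (PRC2) was examined through the RNA of 10 of its subunits in mouse fetal oocytes at E18.5, shortly before birth. The subunits were the catalytic pair Ezh1 and Ezh2, the core proteins Eed, Suz12, Rbbp4 and Rbbp7, and the accessory proteins Mtf2, Phf19, Jarid2 and Aebp2. They were selected by gene symbol, and all 10 were found among the 55401 gene identifiers counted. The oocytes came from fetuses of ICR females fed one of 2 diets, normal (ND) or rich in fat (high-fat diet, HFD), for 4 months from 3 weeks of age and had been mated with ND males. Germ cells were sorted from fetal ovaries by their surface antigen SSEA-1 and carry the label primordial germ cells. Each sample pooled 300 oocytes of 10 fetuses and SMART-Seq2, which makes full-length cDNA from small amounts of RNA, was used for amplification. There were 2 samples per diet, and it is not stated whether they came from separate mothers, so that p-values measure the spread between these samples only.

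PRC2 methylates histone H3 on lysine 27, a mark of repressed chromatin that is read by a second Polycomb complex, PRC1. EZH1 and EZH2 are alternative methyltransferases, and either one needs EED and SUZ12 for activity. RBBP4 and RBBP7 bind histones and also serve in other chromatin complexes. MTF2 and PHF19 define one form of the complex (PRC2.1), and JARID2 and AEBP2 define the other (PRC2.2). In germ cells, PRC2 takes part in the chromatin changes that accompany the loss of DNA methylation.

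Ezh1 and Ezh2 are paralogs, as are Rbbp4 and Rbbp7, and their reads have to be told apart by sequence. The coding sequences of Ezh1 and Ezh2 were identical at 70.3% of 2146 aligned bases, and those of Rbbp4 and Rbbp7 at 78.4% of 1275. The longest identical run was 17 bases for the first pair and 20 bases for the second. The 30 coding bases that hold these runs are shown 5′ to 3′ because the paralogs cannot be told apart within a run. Capitals mark the bases that differ within a pair. Windows with fewer differences were not searched for.
Ezh1: CaagtatgtgggcatcgaGAgGgaaaCgga
Ezh2: GaagtatgtgggcatcgaACgAgaaaTgga
Rbbp4: CaaccatgaaggagaagtgaaCAgGgcCcg
Rbbp7: TaaccatgaaggagaagtgaaTCgTgcTcg
In GRCm38 with the GENCODE M21 annotation, the stretch of Ezh1 lies in exon 21 at chr11:101192949-101192978 on the minus strand and that of Ezh2 in exon 20 at chr6:47530551-47530580 on the minus strand. That of Rbbp4 lies in exon 4 at chr4:129322788-129322817 on the minus strand and that of Rbbp7 in exon 4 at chrX:162769816-162769845 on the plus strand. Each window holds 5 differing bases.

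The libraries held 5723605 to 8223255 counted reads, and 3 counts correspond to 0.365 to 0.524 CPM (counts scaled to a library total of 1e+06). A background limit was set in each library from 1135 olfactory receptor genes, as the 99th percentile of their reads per kilobase of exon, and lay at 7.44 to 12.5 reads per kilobase. Of 12 germ cell markers, 9 or 10 exceeded this limit in each library. The 2 most abundant, Dazl and Sycp1 of the synaptonemal complex, exceeded it in all 4 but varied in opposite directions. Dazl had 14247 and 29465 counts under ND, and 2926 and 49 under HFD. Sycp1 had 36 and 48 counts under ND, and 9038 and 7978 under HFD. The RNA helicase gene Ddx4 was below the limit in both HFD libraries, and the pluripotency gene Pou5f1 was below it in all 4. TMM factors (edgeR's trimmed mean of M values) were 1.02 and 0.940 in ND and 0.692 and 1.51 in HFD. Summed stroma markers ranged from 69.0 to 2843 CPM in ND and from 2222 to 7700 CPM in HFD. Blood markers summed to 1973 CPM in ND replicate 1, from the adult haemoglobin genes Hba-a1, Hbb-bs and Hbb-bt, against at most 11.5 CPM elsewhere.

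The RNA of most PRC2 subunits was concentrated in a single library, and that library differed from subunit to subunit. In CPM, Ezh1, Eed, Suz12 and Aebp2 were highest in HFD replicate 1 and Ezh2, Jarid2 and Phf19 in HFD replicate 2. Rbbp7 and Mtf2 were highest in ND replicate 1 and Rbbp4 in ND replicate 2. Phf19 varied little, and after TMM scaling it lay between 5.10 and 5.37 CPM, with HFD replicate 1 highest. For 8 of the 10 subunits the highest library held over 80% of the CPM summed over the 4 libraries. This was so for 13.1% of all genes tested, and for 68.2% of genes over 10 times the background limit in at least 1 library. All 10 had enough counts to be tested between diets. Of them, edgeR called 0, against 0.0% of all genes tested. DESeq2 on all genes called 7, against 45.3% of the genes with an adjusted p, as detailed with the diet comparison. The plot of CPM by subunit shows the spread between libraries.

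**Figure D1:**
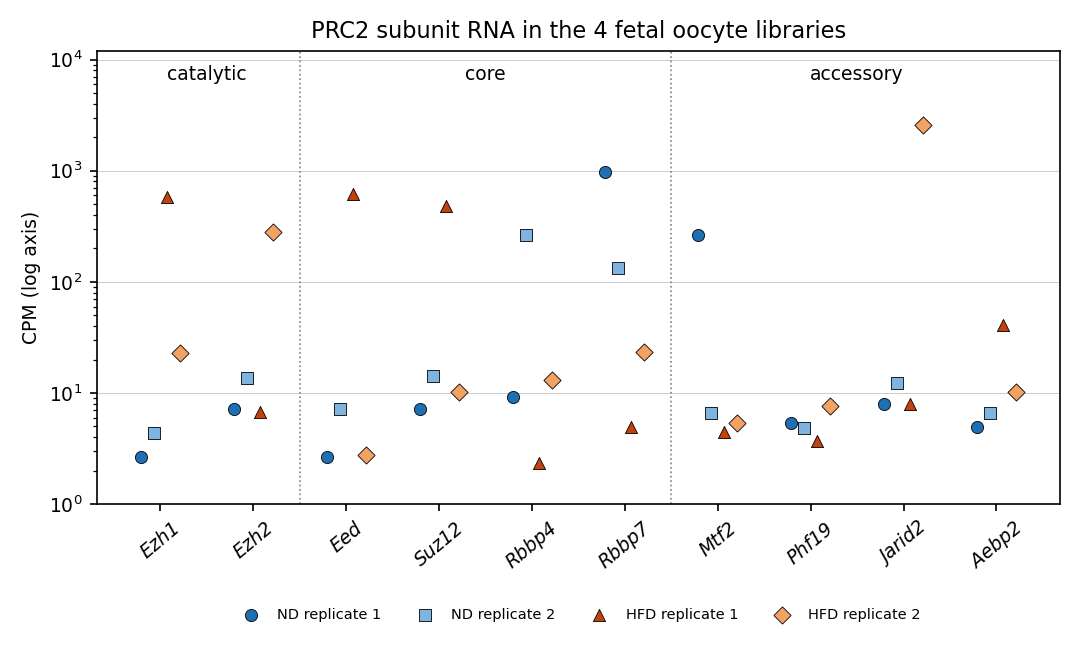
CPM (log axis) of the 10 PRC2 subunits in each of the 4 fetal oocyte libraries, 1 point per library, with subunits ordered by role. For 8 subunits 1 point stands well above the other 3, in HFD replicate 1 for Ezh1, Eed and Suz12, in HFD replicate 2 for Ezh2 and Jarid2, in ND replicate 1 for Rbbp7 and Mtf2 and in ND replicate 2 for Rbbp4, whereas the 4 Phf19 points lie between 3.72 and 7.69 CPM.

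Ezh1, the methyltransferase gene typical of non-dividing cells (chromosome 11 from 101191115 to 101226463), was measured at 2.68 and 4.35 CPM in ND replicates 1 and 2 and at 581 and 22.9 CPM in HFD replicates 1 and 2. Both HFD libraries were above both ND libraries, and the HFD libraries differed from each other by 25.4-fold. The mean was 3.51 ± 1.18 CPM in ND and 302 ± 395 CPM in HFD (SD, n = 2 each). Ezh1 exceeded the background limit in both HFD libraries and in neither ND library. Ezh2, the methyltransferase gene typical of dividing cells (chromosome 6 from 47530139 to 47595341), was measured at 7.17 and 13.6 CPM under ND and at 6.81 and 284 CPM under HFD. In CPM, HFD replicate 2 stood apart, HFD replicate 1 was slightly below both ND libraries, and the groups overlapped. After TMM scaling HFD replicate 1 lay between the ND libraries, at 9.85 against 7.03 and 14.4 CPM. The mean was 10.4 ± 4.52 CPM in ND and 145 ± 196 CPM in HFD (SD, n = 2 each).

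The balance of the catalytic pair was therefore opposite in the 2 HFD libraries. Ezh1 took 27.2% of the reads of both genes in ND replicate 1 (22 of 81, exact Clopper-Pearson 95% interval 17.9 to 38.2%) and 24.3% in ND replicate 2 (34 of 140, 17.4 to 32.2%). In HFD replicate 1 it took 98.8% (3751 of 3795, 98.4 to 99.2%) and in HFD replicate 2 it took 7.46% (131 of 1755, 6.28 to 8.79%). The intervals cover the sampling of reads only. The ND libraries did not differ beyond these intervals, while the HFD libraries lay on either side of them. The ND shares rest on counts near or below background. In ND, Ezh1 was at 0.349 and 0.507 times the background limit and Ezh2 at 1.04 and 1.76 times. In HFD replicate 1, Ezh2 was at 0.886 times the limit. Per kilobase of exon, the share of Ezh1 averaged 23.7 ± 1.92% under ND against 52.7 ± 65.0% under HFD (SD, n = 2 each), and the difference of 29.0 percentage points was smaller than the spread within HFD (exact permutation test, two-sided, p = 1, where 2 against 2 allows no p below 0.333). Without HFD replicate 1 the difference was -17.0 percentage points.

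**Figure D2:**
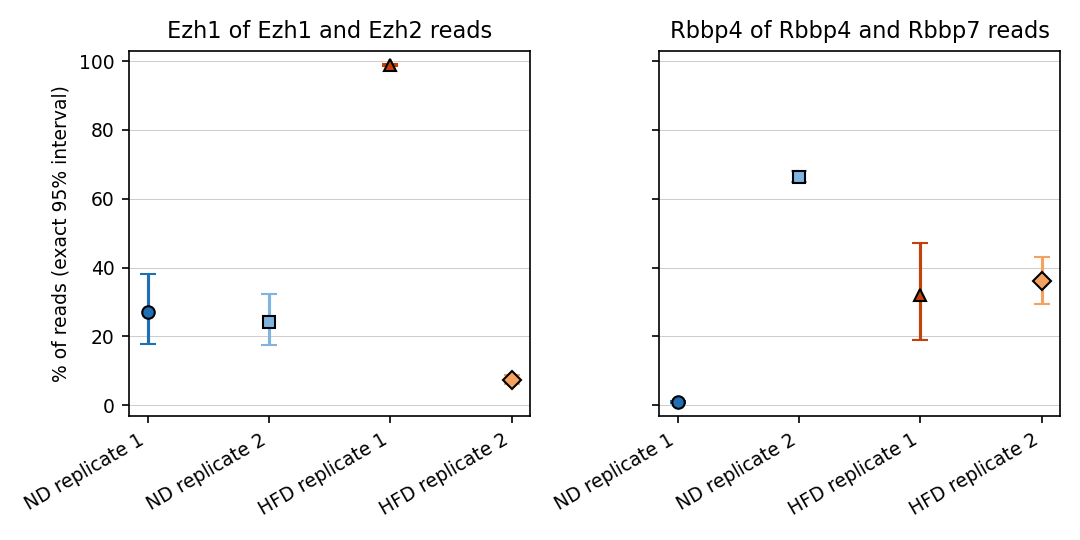
Share of reads (%) taken by Ezh1 among Ezh1 and Ezh2 reads (left) and by Rbbp4 among Rbbp4 and Rbbp7 reads (right) in each library, with exact 95% binomial intervals as bars. Ezh1 takes 27.2% and 24.3% in ND but 98.8% and 7.46% in HFD. Rbbp4 takes 0.932% and 66.4% in ND but 31.9% and 36.1% in HFD. Ezh1 in ND and Rbbp4 in HFD were below the background limit.

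Eed encodes the subunit that binds methylated lysine 27 and activates the enzyme, and Suz12 the scaffold of the complex. Eed (chromosome 7 from 89954654 to 89980983) was counted 22 and 56 times under ND, and 3952 and 16 times under HFD. These counts equal 2.68, 7.17, 612 and 2.80 CPM. In CPM, HFD replicate 2 lay between the ND libraries, so that the groups overlapped. After TMM scaling it was below both, at 1.86 against 2.62 and 7.62 CPM, and the groups still overlapped. Suz12 (chromosome 11 from 79993106 to 80034123) was counted 59 and 111 times under ND, and 3108 and 58 times under HFD, or 7.17, 14.2, 481 and 10.1 CPM. As for Eed, only HFD replicate 1 stood apart, at 33.9 times the next library in CPM. HFD replicate 2 lay within the ND range in CPM but below both ND libraries after TMM scaling, at 6.73 against 7.03 and 15.1 CPM. The means were 4.92 ± 3.18 CPM in ND and 307 ± 431 CPM in HFD for Eed (SD, n = 2 each). For Suz12 they were 10.7 ± 4.97 and 246 ± 333 CPM (SD, n = 2 each).

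The histone-binding subunits had their highest values in ND libraries, Rbbp7 in both and Rbbp4 in ND replicate 2 alone. Rbbp7 (chromosome X from 162760402 to 162779092) was counted 8075 and 1051 times under ND, and 32 and 133 times under HFD, or 982, 134, 4.96 and 23.2 CPM. Both ND libraries were above both HFD libraries, and Rbbp7 was the sole subunit above the background limit in all 4 libraries. Its mean was 558 ± 599 CPM in ND and 14.1 ± 12.9 CPM in HFD (SD, n = 2 each). Rbbp4 (chromosome 4 from 129307100 to 129335370) was counted 76 and 2081 times under ND, and 15 and 75 times under HFD, or 9.24, 266, 2.32 and 13.1 CPM. In CPM, ND replicate 1 fell between the HFD libraries and the groups overlapped, whereas after TMM scaling it was the higher, at 9.06 against 8.70 CPM in HFD replicate 2. Rbbp4 took 0.932% of the reads of this pair in ND replicate 1 (exact 95% interval 0.735 to 1.17%) and 66.4% in ND replicate 2 (64.8 to 68.1%). In the HFD libraries it took 31.9% (19.1 to 47.1%) and 36.1% (29.5 to 43.0%), on 47 and 208 reads of both genes. Rbbp4 was below the background limit in both, at 0.231 and 0.685 times, and Rbbp7 was at 1.48 and 3.65 times.

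Among the accessory subunits, each pair had 1 member with a single high library and 1 member that stayed low, at most 7.69 CPM for Phf19 and 41.2 CPM for Aebp2. Of the PRC2.1 pair, Mtf2 (chromosome 5 from 108065674 to 108109004), a reader of methylated histone H3 that recruits PRC2 to CpG islands, had 2158 counts in ND replicate 1 and 52, 29 and 31 in ND replicate 2 and HFD replicates 1 and 2. This is 262 CPM against 6.65, 4.49 and 5.42 CPM, and the mean was 135 ± 181 CPM in ND and 4.95 ± 0.654 CPM in HFD (SD, n = 2 each). Both ND libraries were above both HFD libraries, although ND replicate 2 was so by a small margin. Phf19 (chromosome 2 from 34893757 to 34914026), its paralog, was counted 44 and 38 times under ND, and 24 and 44 times under HFD. Its means were 5.11 ± 0.345 CPM in ND and 5.70 ± 2.81 CPM in HFD (SD, n = 2 each). Phf19 exceeded the background limit in ND replicate 1 alone, at 1.03 times the limit, and its highest library held the smallest share of the summed CPM of any subunit, 35.6%.

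Of the PRC2.2 pair, Jarid2 (chromosome 13 from 44729474 to 44921643), a DNA-binding member of the JmjC family without demethylase activity, reached 2559 CPM in HFD replicate 2. The other libraries held 7.90, 12.4 and 7.90 CPM in ND replicates 1 and 2 and HFD replicate 1. In CPM, HFD replicate 2 exceeded the next library by 206-fold and held 98.9% of the sum, while HFD replicate 1 equalled the lower ND library. Scaled by TMM, HFD replicate 1 lay between the ND libraries, at 11.4 against 7.75 and 13.2 CPM. The mean was 10.2 ± 3.19 CPM in ND and 1283 ± 1804 CPM in HFD (SD, n = 2 each). Aebp2 (chromosome 6 from 140622663 to 140678472), a zinc finger protein that stabilizes the complex, was counted 41 and 52 times under ND, and 266 and 58 times under HFD, or 4.99, 6.65, 41.2 and 10.1 CPM. Both HFD libraries were above both ND libraries in CPM. After TMM scaling HFD replicate 2, at 6.73 CPM, lay between the ND libraries at 4.89 and 7.08 CPM. Aebp2 exceeded the background limit in HFD replicate 1 alone, at 3.63 times the limit.

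No library held every part of the complex well above background. Over the 40 values of 10 subunits in 4 libraries, 22 exceeded the background limit, with 6 and 7 subunits in ND replicates 1 and 2 and 5 and 4 in HFD replicates 1 and 2. All 10 exceeded it in at least 1 library, against 50.8% of the 19335 genes tested. By the number of libraries above the limit, 2 subunits had 1 (24.4% of genes tested), 5 had 2 (14.7%), 2 had 3 (7.37%), 1 had 4 (4.37%) and 0 had none (49.2%). Values over 10 times the limit, a cut-off chosen after the values had been seen, numbered 9 and fell on 8 subunits, against 18.1% of genes tested. In HFD replicate 1 these were Ezh1, Eed and Suz12, at 67.8, 139 and 84.5 times the limit, whereas Rbbp4 and Rbbp7 were at 0.231 and 1.48 times. In HFD replicate 2 they were Ezh2 at 19.4 and Jarid2 at 120 times, whereas Eed and Suz12 were at 0.334 and 0.937 times. In ND replicate 1 they were Rbbp7 at 328 and Mtf2 at 44.7 times, and in ND replicate 2 Rbbp4 at 26.4 and Rbbp7 at 40.1 times. Among the core genes, ND replicate 2 alone had all 4 above the limit, with Eed at 1.62 and Suz12 at 2.49 times. It also had Ezh2 above the limit, at 1.76 times.

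**Figure D3:**
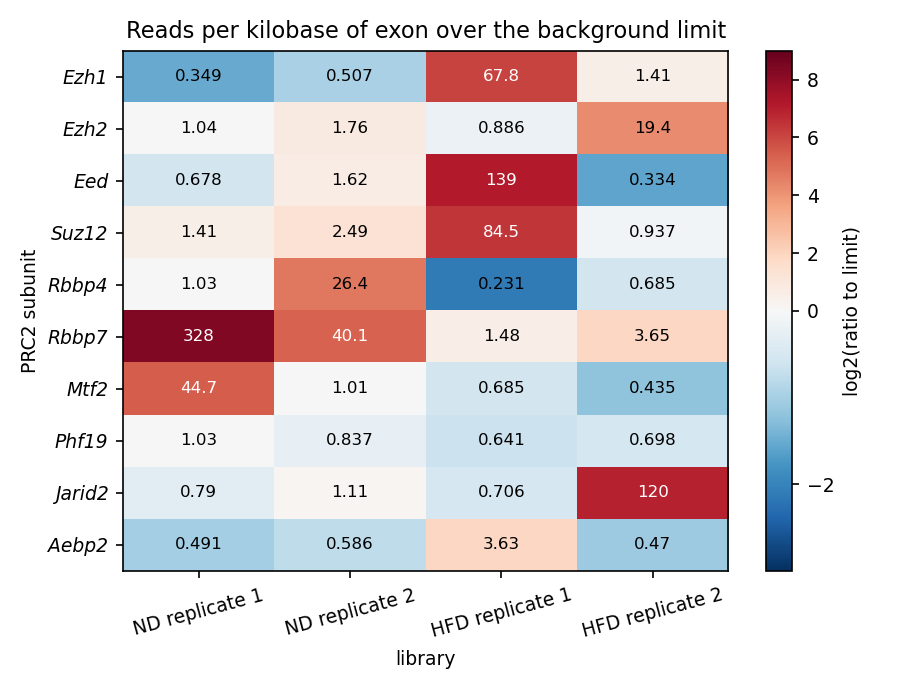
Reads per kilobase of exon divided by the background limit of the library, printed in each cell and coloured on a log2 scale (white at the limit), for 10 PRC2 subunits in rows and 4 libraries in columns. The 9 values over 10 fall on different subunits in each library, and Rbbp7 is the one subunit over 10 in more than 1 library.

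Per length, the leading subunit also changed from library to library. In RPKM (CPM divided by the exon length in kilobases), Rbbp7 led in ND replicates 1 and 2 at 338 and 46.2, Eed in HFD replicate 1 at 160 and Jarid2 in HFD replicate 2 at 263. Of the reads per kilobase summed over the 10 subunits, Rbbp7 held 86.4% and 52.5% in the ND libraries, Eed held 46.4% in HFD replicate 1 and Jarid2 held 81.1% in HFD replicate 2. Averaged over the libraries, the level was highest for Rbbp7 at 98.4 and Jarid2 at 66.6, intermediate for Eed at 40.8, Suz12 at 25.9, Ezh1 at 20.5, Mtf2 at 12.2, Ezh2 at 11.7 and Rbbp4 at 8.32, and lowest for Aebp2 at 1.60 and Phf19 at 1.07. Each of the 8 highest averages rested mainly on 1 library, so that neighbours in this order do not differ beyond their spread.

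Concentration in 1 library was uncommon over all genes tested and frequent among genes with a high value in any library. The highest library held over 80% of the summed CPM for 8 of the 10 subunits, against 13.1% of all genes tested and 25.9% of the 9828 genes above background in at least 1 library. Among the genes over 10 times the limit in at least 1 library, which include the same 8 subunits, the share was 68.2% of 3498 genes. A value over 10 times the limit in exactly 1 library was found for 7 of these 8 subunits and for 69.0% of these 3498 genes (12.5% of all genes tested). The median share of the highest library was 92.7% over the 10 subunits, 53.6% over the 9828 genes and 45.4% over all genes tested. Phf19 at 35.6% and Aebp2 at 65.4% were the subunits below 80%.

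**Figure D4:**
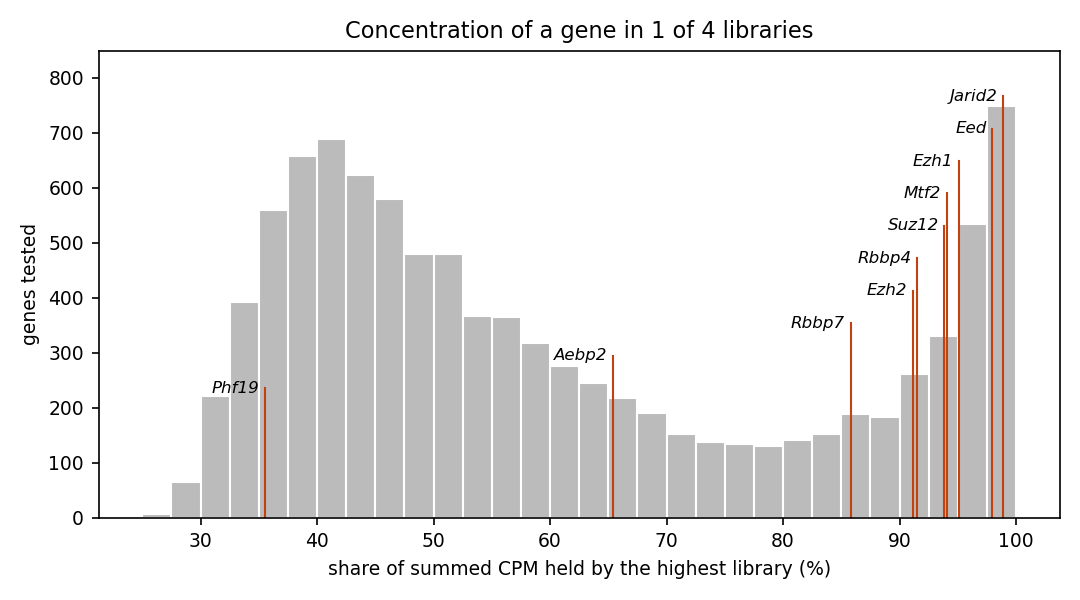
Number of tested genes (y axis) by the share of summed CPM held by their highest library (x axis, %), for 9828 genes above background in at least 1 library (grey bars), with the 10 PRC2 subunits marked by vertical lines whose height carries no value. The genes fall into a broad group near 40% and a second one at the right edge, and 8 subunits lie above 80%.

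Between the diets, edgeR's quasi-likelihood test with Benjamini-Hochberg adjustment called 0 of the 10 subunits at an adjusted p under 0.05 and a fold change over 1.5, where 0.0% of the 19335 genes tested were called. The fitted log2 fold change was above 0 for 7 subunits and below 0 for 3, with a median of 2.84 against 0.03 over all genes tested. At an unadjusted p under 0.05, which 11.2% of all genes reached, there was 1 subunit higher in HFD, against 4.82% of all genes tested, and 1 lower, against 6.41%. Ezh1 was the higher, with a log2 fold change of 6.86 (standard error 2.55, unadjusted p = 0.0378, adjusted p = 0.406 from edgeR). Rbbp7 was the lower, at -5.61 (standard error 2.09, unadjusted p = 0.0394, adjusted p = 0.406 from edgeR). The other subunits had edgeR unadjusted p-values from 0.0581 for Mtf2 to 0.984 for Phf19. Their log2 fold changes with standard errors were 3.22 ± 1.72 for Ezh2, 6.42 ± 3.0 for Eed, 4.98 ± 2.47 for Suz12, -4.58 ± 2.02 for Rbbp4, -4.71 ± 1.99 for Mtf2, 0.01 ± 0.40 for Phf19, 6.36 ± 2.88 for Jarid2 and 2.46 ± 1.21 for Aebp2. In CPM the groups did not overlap for 4 of the 10 subunits, Ezh1 and Aebp2 higher (13.9% of all genes tested) and Rbbp7 and Mtf2 lower in HFD (13.4%), against 27.3% in either direction. After TMM scaling there were again 4, with Rbbp4 lower in place of Aebp2 higher, against 33.9% of all genes.

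DESeq2, the tool of the study's methods, gave a different count on the same libraries. Its Wald test on all genes called 7 of the 10 subunits, against 45.3% of the 5601 genes that received an adjusted p. Ezh1, Eed, Suz12 and Jarid2 were called higher and Rbbp4, Rbbp7 and Mtf2 lower, with adjusted p-values from DESeq2 between 0.000136 for Ezh1 and 0.00720 for Suz12. Phf19 received no adjusted p. With the low-count filter of edgeR, DESeq2 called 4 subunits, Ezh1, Eed, Rbbp7 and Jarid2, against 21.9% of 9589 genes. The older form of edgeR's quasi-likelihood fit called 0 of the 10, against 0.176% of all genes, and limma-voom called 0, against 0.0%.

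Leaving out 1 library moved most of these differences. Without HFD replicate 1, the log2 fold change became -1.56 for Eed, -0.82 for Suz12, 0.06 for Aebp2 and 1.96 for Ezh1. Without HFD replicate 2 it became -0.12 for Ezh2 and 0.12 for Jarid2. Without ND replicate 1 it became -0.55 for Mtf2 and -3.74 for Rbbp7, and without ND replicate 2 it became -0.68 for Rbbp4. With any 1 library left out, the log2 fold change stayed between 1.96 and 7.85 for Ezh1 and between -6.50 and -3.74 for Rbbp7.

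**Figure D5:**
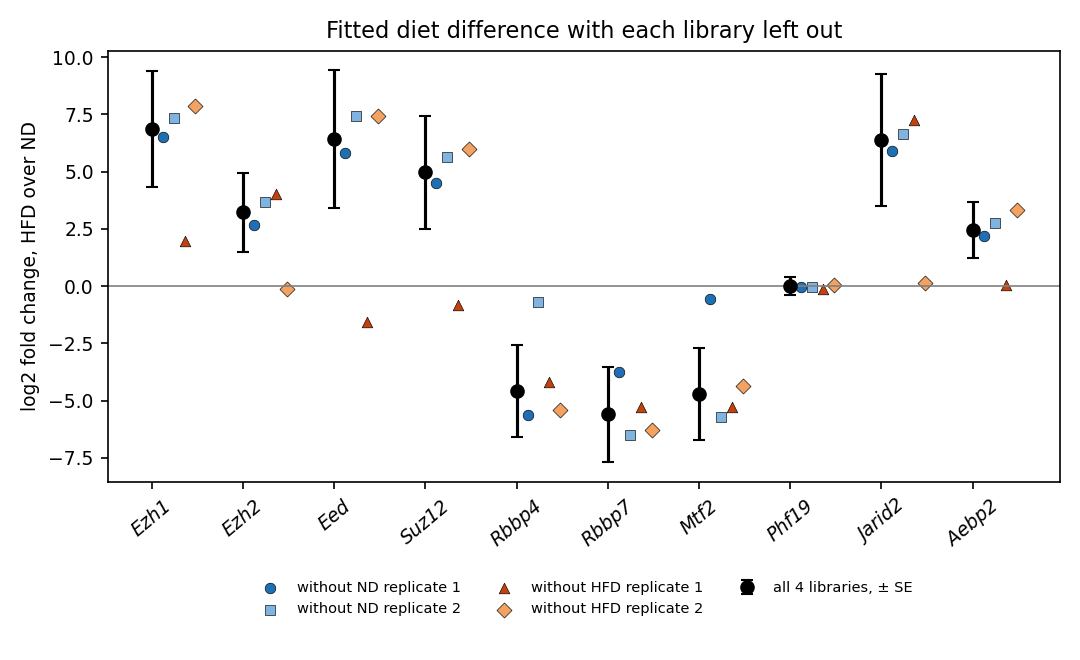
Fitted log2 fold change of HFD over ND (y axis) for the 10 PRC2 subunits from all 4 libraries (black, bars are ± the standard error) and after removal of 1 library at a time (coloured points). Leaving out HFD replicate 1 brings Eed to -1.56 and Suz12 to -0.82, leaving out HFD replicate 2 brings Ezh2 and Jarid2 to -0.12 and 0.12, and all points of Rbbp7 lie below -3.

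A near-identical copy and overlapping genes were searched among the genes counted. At least 150 bases at 95% identity or more were shared with a single other counted gene, Gm6382, a processed pseudogene of Rbbp7 on chromosome X from 142210884 to 142211825 with 97.1% identity over 942 bases, and it had at most 4 counts in any library. Exons of counted genes on the opposite strand overlapped those of Eed, Rbbp4, Rbbp7 and Mtf2. These genes were E230029C05Rik with 10 to 35 counts (35 against 22 for Eed in ND replicate 1), Sync with 1 to 16, Txlng with 11 to 161 and Tmed5 with 12 to 35 (20 against 29 for Mtf2 in HFD replicate 1), all chosen by their position. Non-coding genes on the opposite strand of Ezh2, Suz12 and Rbbp4 were not analysed here. The strand setting of the counting is not given in the sources used here, so that reads in these overlaps cannot be assigned to one strand.

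Other genes of the Polycomb system included few with a single dominant library, but many of them were below background in every library. In any list edgeR called 0, against 0.0% of all genes tested. The highest library held over 80% of the summed CPM for 0 of 4 further PRC2 partners, 3 of 24 PRC1 genes, 1 of 2 lysine 27 demethylases, 0 of 4 genes of the H2A deubiquitinase and 2 of 26 Hox genes tested, against 13.1% of all genes tested. Of these tested genes, 2, 14, 2, 1 and 9 in the same order of lists were above background in at least 1 library. Over all genes above background in at least 1 library, the share was 25.9%. Of the further PRC2 partners, 1 had a fitted value above 0 and 3 below 0. Ezhip, which encodes an inhibitor of EZH2 in germ cells and is named AU022751 in the annotation, was counted 35 and 114 times under ND, and 10 and 37 times under HFD, with HFD replicate 1 alone below the background limit. Its fitted log2 value was -1.58 (standard error 0.82, edgeR adjusted p = 0.434). Of 24 PRC1 genes, 12 were fitted above 0 and 12 below 0, with a median log2 fold change of 0.05, and 1 in each direction had an unadjusted p under 0.05, where 4.82% of all genes tested were higher and 6.41% lower. Pcgf6, a ring finger subunit of a PRC1 form that represses germ cell genes in embryonic stem cells, was counted 60 and 47 times under ND, and 5073 and 315 times under HFD (log2 fold change 6.42, standard error 2.44, unadjusted p = 0.0419, adjusted p = 0.406 from edgeR). It was above background in all 4 libraries. Scmh1, a PRC1-associated gene, was counted 43 and 29 times under ND and 11 and 17 times under HFD, below background throughout (log2 fold change -1.03, standard error 0.37, unadjusted p = 0.0316, adjusted p = 0.406 from edgeR).

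The demethylases that remove methyl groups from lysine 27 were both fitted above 0. Kdm6a, an X-linked demethylase gene, was counted 21 and 48 times under ND, and 216 and 1275 times under HFD. Its HFD values were both above background and its ND values both below it, with a log2 fold change of 4.44 (standard error 1.39, unadjusted p = 0.0199, edgeR adjusted p = 0.406). Kdm6b was counted 4213 and 222 times under ND, and 8933 and 82 times under HFD, so that each diet had 1 high and 1 low library. Of the 4 genes of the deubiquitinase that removes the mark of PRC1 from histone H2A, 2 were fitted above 0 and 2 below 0, and 1 exceeded background in any library.

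Hox genes, the classical targets of Polycomb repression, were mostly at background. Of 39 Hox genes, 11 exceeded the limit in at least 1 library, 10 and 3 of them in ND replicates 1 and 2 and 3 in either HFD library. Of the 26 that passed the low-count filter, 9 exceeded the limit in at least 1 library, against 50.8% of all genes tested. Of these 26, 12 were fitted above 0 and 14 below 0, with a median log2 fold change of -0.06. In edgeR, 0 of the 26 had an unadjusted p under 0.05, against 11.2% of all genes tested. Hoxd9 was counted 32 and 23 times under ND, and 1376 and 14 times under HFD, a single high library as for the PRC2 subunits.

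Markers of other ovarian cells varied between libraries as well, in patterns that differed from marker to marker. The stroma markers summed to 2843 and 69.0 CPM under ND, and 2222 and 7700 CPM under HFD, with 6, 4, 3 and 6 of 9 above background. Col1a1, a collagen gene, was above background in all 4 libraries and highest in HFD replicate 2, at 15691 counts. In that library, where Jarid2 and Ezh2 were highest, Col3a1 had 16987 counts and the pregranulosa gene Amhr2 had 6372 against 5 to 19 elsewhere. The stroma genes Col1a2, Dcn and Lum were below background there, at 134, 17 and 7 counts. Of 10 pregranulosa markers, 3 and 4 exceeded background under ND, and 0 and 2 under HFD. Their sums were 40.3 and 413 CPM under ND, and 21.7 and 1169 CPM under HFD. Amhr2 alone held 1113 CPM in HFD replicate 2, and Fst alone held 383 CPM in ND replicate 2. Fst, which encodes follistatin, had 2990 counts in ND replicate 2, where Rbbp4 was highest, against 7 to 35 elsewhere, and the transcription factor gene Foxl2 stayed between 14 and 34 counts. In HFD replicate 1, where Ezh1, Eed and Suz12 were highest, the endothelial receptor gene Kdr had 4398 counts against 28 to 67 elsewhere, while Pecam1 was highest in ND replicate 2 at 421 counts. The endothelium markers had 0, 1, 2 and 1 of 5 above background in ND replicates 1 and 2 and HFD replicates 1 and 2, with sums of 18.8, 68.6, 698 and 28.1 CPM. In ND replicate 1, where Rbbp7 and Mtf2 were highest, the stroma genes Dcn and Lum had 2656 and 4916 counts, against 8 to 36 and 6 to 9 elsewhere. The blood markers had 3, 1, 0 and 1 of 7 above background in the same order of libraries, with sums of 1973, 2.18, 3.10 and 11.5 CPM. Hbb-bs had 7350 counts in ND replicate 1 and 0 to 2 elsewhere, whereas the embryonic gene Hbb-y was at 0 there and at 3 to 6 counts elsewhere. Macrophage markers, with 2 of 5 above background in HFD replicate 2 and 0 elsewhere, stayed between 3.84 and 9.61 CPM in sum under ND and between 6.35 and 25.3 CPM under HFD, and Lyz2 and C1qa were at 0 in 1 library each. The part of these cells in the PRC2 values was not tested, and in pooled RNA fewer cells of a type and less RNA per cell cannot be told apart.

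Each of the 10 genes had at least 1 CpG-rich promoter among its 14 promoters, which were taken from RefSeq on GRCm38.p6 as 250 bases before to 50 bases after a start site. The most CpG-rich promoter of each gene held from 17 CpG in Eed to 41 in Suz12. Measured the same way over 27025 genes, the median was 8, and 33.9% of genes reached 17 or more. Further promoters of Mtf2 and Aebp2, 3 in all, held 2 to 4 CpG, below the median of 7 over all 32851 promoters. The motifs TTTCCCGC and TTTGGCGC, forms of the site of the cell cycle factors E2F, were searched on both strands and occurred in 3 of the 10 genes, against 1.80% of all genes, and in 3 of their 14 promoters, against 1.56% of all promoters. The share among equally CpG-rich promoters was not computed. The ETS motif CCGGAAGT and the ZBTB33 motif, present in promoters of 4.31% and 0.525% of all genes, occurred in 0 of the 10. A match is a description of these letters only. The 30 bases around each E2F match are shown with the motif in capitals. Phf19 and Suz12 hold TTTCCCGC and Ezh2 holds TTTGGCGC, while their RNA was highest in different libraries or low throughout.
Phf19: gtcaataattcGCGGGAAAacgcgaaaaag
Suz12: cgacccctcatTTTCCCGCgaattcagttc
Ezh2: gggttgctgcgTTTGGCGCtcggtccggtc
They lie at chr2:34914166-34914195 on the minus strand, where the motif is read as its reverse complement, at chr11:79992876-79992905 on the plus strand and at chr6:47595009-47595038 on the minus strand. The match in Ezh2 begins at base 3 from the start site, and those in Phf19 and Suz12 at -208 and -219.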

How the data were processed

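RNA-seq of 4 pooled fetal oocyte samples was analysed, 2 per diet. Per the labels and methods, the authors checked reads with FastQC, trimmed them with Trim Galore, mapped to mm10 by HISAT2 and assigned to genes by featureCounts. The deposited values are raw read counts per Ensembl gene. The annotation release, the strand setting and the handling of multi-mapped reads are not given in the sources used here. Gene names, coordinates and merged exon lengths were taken from GENCODE M21, which lacked 260 of 55401 identifiers.

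The diets were compared in R 4.3.3 with edgeR 4.0.16 (quasi-likelihood, legacy FALSE, TMM, filterByExpr, 19335 genes tested), at an adjusted p under 0.05 and a fold change over 1.5. Standard errors were obtained from log2 fold changes and F statistics (absolute value divided by the root of F). DESeq2 1.42.0, limma 3.58.1 (voom), edgeR's legacy fit, other normalizations and filters, a replicate block and each library left out were alternatives. The main and legacy edgeR fits, DESeq2 and limma-voom were tested on simulated data. The other normalizations and filters, the block and the fits with a library left out were not. The simulation gave every gene the same spread, so it does not cover genes as variable between replicates as most PRC2 subunits. The libraries held 5723605 to 8223255 counts. Intervals and floors cover the sampling of reads only. Reads carry no molecular identifiers, so amplified copies of the same molecule were not told apart and the intervals may be too narrow.

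The members and gene lists were chosen with earlier results of these data known. Named genes are the 10 members, the 3 tested genes with the smallest p of each other Polycomb list (fewer are described), the 2 most abundant markers of each cell type, and copies or overlapping genes with over 10 counts. Ddx4, Pou5f1, Foxl2, Col1a2, Dcn, Lum, Hbb-bt, Hbb-y, Lyz2, C1qa and Gm6382 were added after their values were seen. Bisulfite data of the study were not analysed here.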

Additional observations from a re-analysis of the deposited data

How the results depend on the processing

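Between diets, edgeR's quasi-likelihood fit called 0 genes in either direction. DESeq2 called 1360 higher and 1179 lower on all genes, 1039 and 1063 on the genes that passed edgeR's filter, and edgeR's legacy fit called 12 and 22. Of the 10 subunits, these called 7, 4 and 0, against 45.3%, 21.9% and 0.176% of the genes with an adjusted p. The number of subunits at an unadjusted p under 0.05 was 2 (11.2% of all genes with a p in that fit), and it was 1 with library size only (8.25%), 4 without a filter on low counts (8.23%), 1 with at least 10 counts in every sample (13.4%), 8 with DESeq2 on all genes (6.49%) or on the filtered genes (18.7%), 0 with limma-voom (3.88%) and 0 with the legacy fit (6.23%). With 1 library left out, a diet keeps 1 sample, so that p-values of those fits are not counted here. The causes were not tested.

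With the replicate number as a block, edgeR called 0 genes and 0 subunits reached an unadjusted p under 0.05 (7.66% of all genes did). DESeq2 with the block called 373 genes higher and 658 lower (27.8% of 3714), and 2 subunits, Ezh1 and Rbbp7, with 5 at an unadjusted p under 0.05 (4.04% of genes). It is not stated whether samples of the same number share more than that number. The differences between replicates of the 2 diets had a correlation of 0.01 over genes, which cannot settle it.

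With each library left out, the log2 fold change ranged from -0.12 to 4.03 for Ezh2, from -1.56 to 7.43 for Eed, from -0.82 to 5.97 for Suz12 and from -0.14 to 0.045 for Phf19. For Phf19 it was -0.084 without a filter, -0.073 with at least 10 counts and -0.052 with DESeq2 on all genes, with or without the block. The difference in the Ezh1 share ranged from -17.0 to 75.0 percentage points. Library size only moved the median log2 fold change of all genes by 0.18. With the 95th percentile as background limit, 7, 8, 8 and 7 subunits exceeded it in ND replicates 1 and 2 and HFD replicates 1 and 2. At 2 libraries per diet, no exact permutation test can reach a p below 0.333, and 3 counts set the detection floor at 0.365 to 0.524 CPM.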
